A study of Drosophila melanogaster with 3 samples.

Results

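The heat shock and chaperone genes described here were 10 named genes of Drosophila melanogaster, taken by symbol from the gene annotation, out of 13945 protein-coding genes. They were Hsp22, Hsp23, Hsp26, Hsp27, Hsp83, Hsc70-4, Hsc70-5, Hsp60A, DnaJ-1 and Hsf. The data were chromatin immunoprecipitation sequencing (ChIP-seq) peak lists for CG2678, a zinc finger protein also named kipferl, in whole embryos of both sexes aged 0 to 24 h, in 1 group of 3 biological replicates. All embryos came from 1 transgenic line that carries CG2678 joined to GFP at its C-terminus, and the immunoprecipitation used an antibody against GFP, so the tagged protein and not the native one was measured, in a mixture of all embryonic cell types and stages. There was no second condition, and the embryos are not described as heat shocked in the labels. Each replicate had a list of 30000 peaks, a pooled list of 30000 was called on the replicates together, and 9459 of the pooled peaks passed the authors' threshold on the irreproducible discovery rate (IDR), a measure of how well peak ranks hold across replicates. The value compared is the rank of a peak by signal within its list (1 is the strongest), because the signal is the authors' score and is not on 1 scale between lists. At every IDR summit given here the IDR rank and the pooled rank were the same. The IDR list is thus in effect the strongest part of the pooled list, and the 2 lists are not separate evidence. The position of a peak is its summit, and distances are to annotated transcription start sites (TSSs). The lists hold no read counts, and sequencing depth is therefore unknown.

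Heat shock proteins keep other proteins folded. The small heat shock proteins hold unfolded proteins in solution, Hsp70 proteins with their J-domain partners refold them, Hsp90 matures signalling proteins, and Hsp60 forms a folding chamber in mitochondria. On heat stress the heat shock factor, encoded by Hsf, binds heat shock elements, which are arrays of the short unit GAA in alternating orientation, and switches the inducible genes on. The small heat shock genes of the fly are also active without heat in development and in germ cells, and the cognate genes (Hsc70-4, Hsc70-5, Hsp60A) and Hsp83 are active in most cells.

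The sequences printed here are a selection from the members. They include Hsp23 and Hsc70-4, which had no IDR summit at a TSS, and leave out the strong summits at Hsc70-5 and Hsp22. They were read from the RefSeq copy of Release 6, the same assembly as dm6, and are given 5′ to 3′ on the strand of the gene. Capitals mark pairs of heat shock units (GAANNTTC or TTCNNGAA, where N is any base) and the TATA-box word TATAAA on either strand. The first 5 lines hold the 250 bases before the 5′-most TSS, so that a summit 150 bp upstream lies 100 bases into the line. They are from chr3L:9383813-9384062 (plus strand) for Hsp27, which had the strongest promoter peak of the members; chr3L:9377428-9377677 (minus strand) for Hsp26, whose summit lay at a heat shock unit pair; chr3L:9381632-9381881 (plus strand) for Hsp23, a close neighbour with only weak peaks; chrX:11108232-11108481 (plus strand) for Hsp60A; and chr3R:15242437-15242686 (plus strand) for Hsc70-4, where the lists went apart. The next line is the intron summit of Hsp83 with 50 bases on each side (chr3L:3194213-3194313, plus strand). The last line is the heat shock unit pair of Hsp83 with 11 bases on each side (chr3L:3193137-3193166, plus strand).
Hsp27: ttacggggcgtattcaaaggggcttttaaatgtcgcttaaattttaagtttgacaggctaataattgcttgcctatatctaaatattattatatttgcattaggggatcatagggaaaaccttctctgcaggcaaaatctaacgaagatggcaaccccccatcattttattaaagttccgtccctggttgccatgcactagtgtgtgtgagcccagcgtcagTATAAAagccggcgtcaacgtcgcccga
Hsp26: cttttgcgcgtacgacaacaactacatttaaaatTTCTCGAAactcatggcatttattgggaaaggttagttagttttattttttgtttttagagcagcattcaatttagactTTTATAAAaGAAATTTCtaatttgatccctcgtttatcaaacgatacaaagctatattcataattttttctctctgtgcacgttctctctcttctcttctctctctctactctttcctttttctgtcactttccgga
Hsp23: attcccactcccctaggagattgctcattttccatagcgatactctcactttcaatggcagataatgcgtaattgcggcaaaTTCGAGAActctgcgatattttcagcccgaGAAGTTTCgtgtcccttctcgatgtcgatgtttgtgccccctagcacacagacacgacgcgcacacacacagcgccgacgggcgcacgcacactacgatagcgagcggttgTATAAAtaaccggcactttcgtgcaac
Hsp60A: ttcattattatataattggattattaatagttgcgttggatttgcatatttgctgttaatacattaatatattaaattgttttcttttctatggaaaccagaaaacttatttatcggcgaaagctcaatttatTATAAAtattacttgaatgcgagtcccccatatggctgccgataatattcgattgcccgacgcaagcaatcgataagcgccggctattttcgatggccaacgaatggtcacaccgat
Hsc70-4: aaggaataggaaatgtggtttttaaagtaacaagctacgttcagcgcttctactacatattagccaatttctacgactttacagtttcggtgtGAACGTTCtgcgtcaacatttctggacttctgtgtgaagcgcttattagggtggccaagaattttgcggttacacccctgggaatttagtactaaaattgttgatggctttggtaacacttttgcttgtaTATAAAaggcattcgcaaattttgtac
Hsp83 intron summit: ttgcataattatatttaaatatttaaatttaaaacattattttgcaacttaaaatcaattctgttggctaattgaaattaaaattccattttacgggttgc
Hsp83 heat shock unit pair: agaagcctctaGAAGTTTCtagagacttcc

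Of the 10 members, 7 had a promoter peak in the IDR list, meaning a summit no more than 500 bp from a TSS, against 22.5% of all protein-coding genes. These were Hsp22, Hsp26, Hsp27, Hsp83, Hsc70-5, Hsp60A and DnaJ-1, while Hsp23, Hsc70-4 and Hsf had none. In the pooled list 9 of 10 had a promoter summit (background 34.1%). The count was 10 of 10 in replicate 1 (43.9%), 9 of 10 in replicate 2 (37.0%) and 6 of 10 in replicate 3 (33.5%). In all 3 replicate lists 6 of 10 had one (25.8%), not always at the same site. These were Hsp26, Hsp27, Hsp83, Hsc70-5, Hsp60A and Hsc70-4, the last counted from summits at different TSSs. Hsp22 was not among them, since its upstream summit lay 523 bp from the TSS in replicate 3. An IDR summit anywhere from 5 kb before to 5 kb after the gene was found for 8 of 10 members, against 53.7% of protein-coding genes. The members were listed with earlier results of these data known, and 4 of them are neighbours on 3L, so these shares describe the list and were not tested. Whether open chromatin at active promoters adds to the peaks was not tested either.

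**Figure D1:**
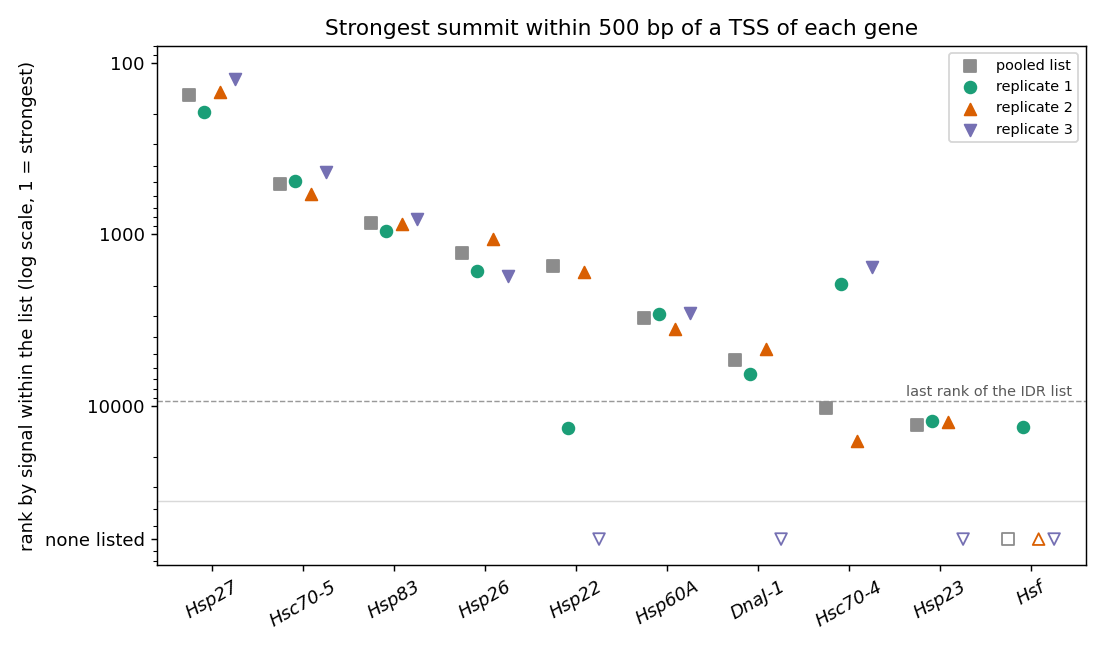
Rank by signal of the strongest summit within 500 bp of a TSS of each member (y axis, log scale, 1 at the top) in the pooled list and the 3 replicate lists; open symbols at the bottom mark lists with no such summit. Hsp27 stayed between ranks 125 and 194, Hsc70-4 spread from rank 1551 to rank 16117, and the strong Hsp22 summits of replicates 1 and 3 lay 515 and 523 bp from the TSS, just past the window, so they are not drawn.

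The windows from 5 kb before to 5 kb after the members held 12 separate IDR summits, of which 10 were in promoters and 2 in introns. Over the whole IDR list 3246 of 9459 summits were in promoters. The windows are set around genes and so always hold TSSs, which the whole genome does not match. The pooled list had 23 summits in these windows and the replicates had 35, 25 and 21. Because the small heat shock genes lie so close together, the 12 IDR summits made 17 pairs of a member and a summit. Of the 12, 8 had a summit within 100 bp in every replicate list, 3 in 2 replicates and 1 in 1 replicate. Over all IDR summits 85.6% had one in every replicate. The 12 summits thus comprised 7 at a promoter or intron of a member with ranks that held in all replicates, and 5 that were weak, in part missing or nearest another gene.

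The small heat shock genes Hsp22, Hsp23, Hsp26 and Hsp27 lie within 12.8 kb of each other on 3L (9372931 to 9385694, dm6), in a cluster that also holds Hsp67Ba, Hsp67Bc and CG4456, known before as Hsp67Bb. The 4 members encode small heat shock proteins, which share the alpha-crystallin domain. The cluster had 4 IDR summits, and they were unequal.

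Hsp27, whose nuclear and cytoplasmic protein protects against stress, had the strongest of them. The summit was at 9383905, in a peak from 9383656 to 9384145, 158 bp upstream of the only TSS and outside any gene. It ranked 194, 148 and 125 in replicates 1, 2 and 3 (mean rank 156 ± 35.1, SD, n = 3) and 155 in the IDR list, within the top 1.64%. All 3 replicates therefore placed this peak among their 200 strongest of 30000. The summit was found 157, 151 and 150 bp upstream of the TSS in replicates 1, 2 and 3, a spread of 7 bp.

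Hsp26, a cytoplasmic small heat shock protein gene that is also active in ovaries and in the nervous system, had its summit 134 bp upstream of its outer TSS, at 9377561 in a peak from 9377282 to 9377765. The ranks were 1635, 1061 and 1753 (mean rank 1483 ± 370, SD, n = 3). Replicate 2 thus placed it highest. The summit lay 131, 121 and 90 bp upstream of the outer TSS in replicates 1, 2 and 3. There an A- and T-rich stretch surrounds the first heat shock unit pair upstream of the outer TSS, which is centred 124 bp upstream. Another pair, centred 7 bp downstream of the outer TSS and upstream of the inner one, was 141 bp from the IDR summit.

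Hsp22, whose protein acts in mitochondria, had 2 IDR summits near its TSSs, and neither was close to the TSS of its short transcript. The stronger one, at 9373516 in a peak from 9373261 to 9373708, lay 481 bp upstream of the inner TSS (9373997), in transcribed untranslated sequence that Hsp22 shares with CG4456. It ranked 1282, 1662 and 1777 (mean rank 1574 ± 259, SD, n = 3), much like the Hsp26 peak. Its summits in replicates 1 and 3 were 515 and 523 bp upstream, so they fall outside the 500 bp window and count as 5′ UTR there, while in replicate 2 it lay 456 bp upstream. The weaker one, at 9372795, was 136 bp upstream of the outer TSS of Hsp22 and 73 bp downstream of the TSS of CG4456. It had an IDR rank of 8290, ranks of 13569 in replicate 1 and 6157 in replicate 2, and no summit within 100 bp in replicate 3.

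Hsp23, which lies between Hsp26 and Hsp27, had no IDR summit at its TSS. Its strongest pooled summit within 500 bp of the TSS was 126 bp upstream, at 9381756, with a rank of 12941 of 30000. Replicate 2 had a summit at the same base with a rank of 12428, and replicate 1 had one 138 bp downstream of the TSS with a rank of 12321. Replicate 3 had no summit within 500 bp. Weaker summits lay closer to the TSS, 87 bp downstream in the pooled list (rank 25405) and 73 bp downstream in replicate 2 (rank 28614). Hsp23 and Hsp27 thus stood apart although their TSSs are close neighbours: the Hsp27 summit had a pooled signal of 5474 and the strongest Hsp23 summit one of 157.

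**Figure D2:**
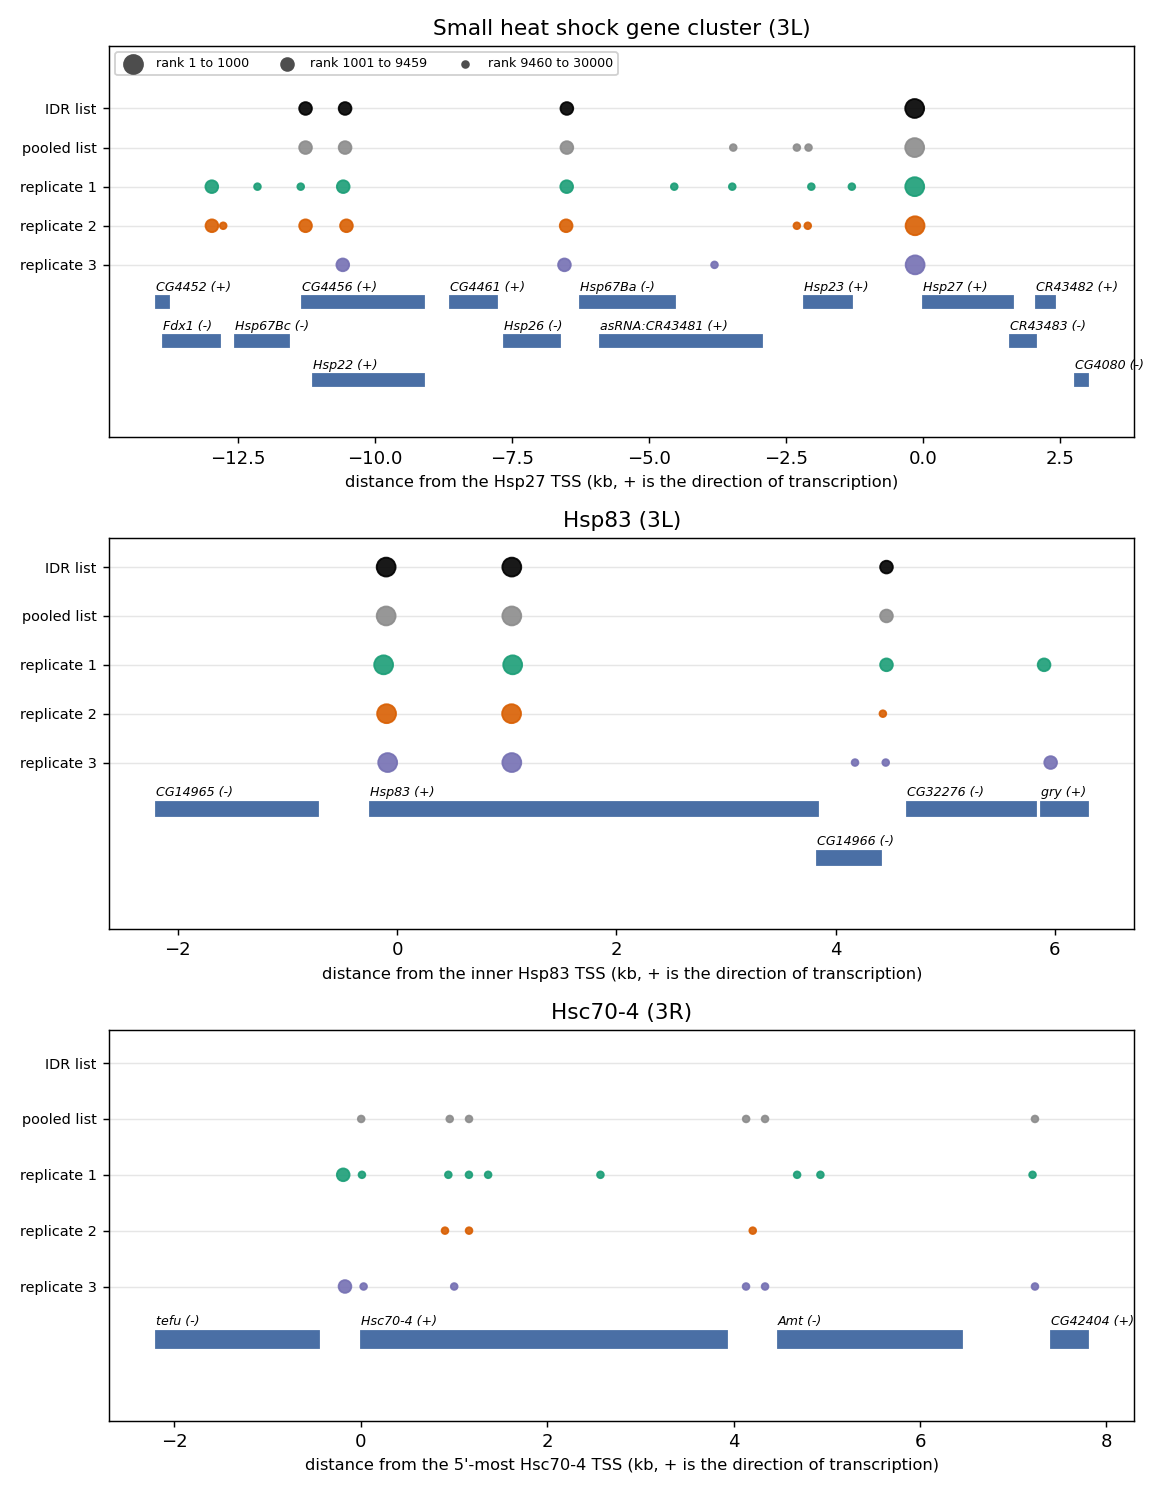
Summits of the 5 peak lists (rows) by distance from a TSS in kb (x axis) at the small heat shock gene cluster, Hsp83 and Hsc70-4, with gene models as boxes (strand in brackets; boxes that reach the edge are clipped); the size of a dot gives the rank class within the list. The cluster has 4 IDR summits, of which only that at Hsp27 is among the first 1000; both summits within Hsp83 are among the first 1000 of every list; and at Hsc70-4 the upstream summit is in replicates 1 and 3 only.

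Hsp83, the single cytosolic Hsp90 gene of the fly, had a pair of strong summits, the stronger of them in its intron. The intron summit was at 3194263, in a peak from 3193960 to 3194468, 1047 bp downstream of the inner TSS (3193216). It ranked 511, 313 and 492 (mean rank 439 ± 109, SD, n = 3). The promoter summit, at 3193117 in a peak from 3192780 to 3193376, ranked 957, 875 and 816 (mean rank 883 ± 70.8, SD, n = 3). The intron summit was the stronger in every replicate, and the replicate ranks of the 2 summits did not overlap.

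The promoter summit of Hsp83 lay 99 bp upstream of the inner TSS and within the first exon of transcripts that start at 3192969. The replicate summits were 122, 95 and 85 bp upstream of the inner TSS. The heat shock unit pair printed last among the sequences is centred 65 bp upstream of that TSS, 34 bp from the IDR summit. Another IDR summit, at 3197680, was nearest the TSS of the neighbour CG14966, 49 bp upstream, with an IDR rank of 9123. It ranked 4643 in replicate 1, 15443 in replicate 2 and 18523 in replicate 3, so its position near the end of the IDR list came with a wide spread.

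Hsc70-4, the main constitutive cytosolic Hsp70 gene, had no IDR summit within 5 kb, although 2 replicates had a strong one at its promoter. In replicate 1 a summit 189 bp upstream of the 5′-most TSS (15242687, 3R) ranked 1946. In replicate 3 one 170 bp upstream ranked 1551. Replicate 2 had no summit within 500 bp of that TSS; its strongest promoter summit lay 392 bp downstream of an inner TSS, with a rank of 16117. The replicates were thus divided, 2 against 1.

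The pooled list had a line from 15242225 to 15242879 that spans both of those upstream summits, but its summit was at 15242691, 4 bp downstream of the TSS, with a rank of 12275. The strongest pooled promoter summit of Hsc70-4, 443 bp downstream of an inner TSS, ranked 10390, below the last IDR rank of 9459. Replicates 1 and 3 had weak summits beside the strong one as well, 12 and 30 bp downstream of the TSS, with ranks of 15113 and 16014. The absence of Hsc70-4 from the IDR list therefore did not mean that the replicates lacked a peak there. Why the pooled list has no upstream summit was not tested.

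Hsc70-5, the mitochondrial Hsp70 gene, had a strong and steady promoter peak. The summit was at 14256239 on 2R, in a peak from 14255968 to 14256544, 47 bp upstream of the outer TSS (14256192), in the 301 bp between Hsc70-5 and the divergent gene CG8531. It ranked 492, 587 and 436 (mean rank 505 ± 76.3, SD, n = 3). The peak spans the TSSs of both genes, and its summit is nearer that of Hsc70-5. Replicate 1 had a further summit at 14256437, 56 bp upstream of the CG8531 TSS, with a rank of 3441. Position alone does not settle which gene the peak belongs to. A summit in an intron of the neighbour Mdr50 (IDR rank 3092) was within 5 kb of Hsc70-5 and was found in replicates 2 and 3 (ranks 2632 and 3518) but not in replicate 1. Another, 63 bp upstream of the TSS of beta4GalNAcTA, had an IDR rank of 9414 and a summit within 100 bp in replicate 3 only.

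Hsp60A, the ubiquitous mitochondrial chaperonin gene on X, had 1 IDR summit, at 11108334 in a peak from 11108130 to 11108510, 148 bp upstream of the 5′-most TSS. It ranked 2934, 3558 and 2901 (mean rank 3131 ± 370, SD, n = 3). The replicates placed the summit 156, 148 and 132 bp upstream. The mitochondrial partners Hsc70-5 and Hsp60A therefore both had a promoter peak in every replicate, with ranks that did not overlap.

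DnaJ-1, which encodes the cytosolic Hsp40 partner of Hsp70, had the weakest best promoter peak by IDR rank among the 7 members with one. The summit was at 5752096 on 3L, 93 bp downstream of the TSS, with an IDR rank of 5422. It ranked 6585 in replicate 1 and 4662 in replicate 2. Replicate 3 had no summit within 5 kb of the gene.

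Hsf, which encodes the heat shock factor itself, had no IDR and no pooled summit within 5 kb. Replicate 1 had 5 summits there, the strongest 661 bp upstream of the Hsf TSS, nearest the TSS of the Polycomb group gene Pcl, with a rank of 7183. One summit 47 bp downstream of the Hsf TSS ranked 13308 in replicate 1. Replicate 2 had summits only toward Spn55B and stau, and replicate 3 had none. Among the members the regulator thus had no promoter summit seen in more than 1 replicate.

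Ordered by mean replicate rank, the summits within or nearest a member that every replicate held were Hsp27, the Hsp83 intron, the Hsc70-5 promoter, the Hsp83 promoter, Hsp26, the Hsp22 upstream summit and Hsp60A. Hsp27 stood clear of the next, since its lowest rank of 194 was above the best rank of 313 at the Hsp83 intron. The Hsp83 intron (313 to 511) and Hsc70-5 (436 to 587) overlapped, and so did Hsp26 (1061 to 1753) and Hsp22 (1282 to 1777). The Hsp83 promoter (816 to 957) overlapped with neither of its neighbours, and Hsp60A (2901 to 3558) lay below the Hsp22 range. For the 7 members with an IDR promoter summit the median of the best IDR ranks was 1292, against 2948 for the 3141 protein-coding genes with one.

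The wider set of chaperone genes had a share of promoter peaks nearer to the background than the members had. Of 48 further genes for Hsp70, Hsp60, Hsp90 and small heat shock proteins, J-domain proteins, co-chaperones and subunits of the cytosolic chaperonin CCT, 14 had an IDR promoter summit, or 29.2% against 22.5% of protein-coding genes. In the pooled list it was 17 of 48, or 35.4% against 34.1%. The replicates differed: 31 of 48 in replicate 1 (64.6% against 43.9%), 20 in replicate 2 (41.7% against 37.0%) and 11 in replicate 3 (22.9% against 33.5%). All 3 replicate lists held 9 of them (18.8% against 25.8%), so the list stood above the background in replicate 1 and below it in replicate 3. The median of the best IDR ranks of the 14 genes was 4152, a weaker rank than the 2948 of all protein-coding genes with an IDR promoter summit.

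**Figure D3:**
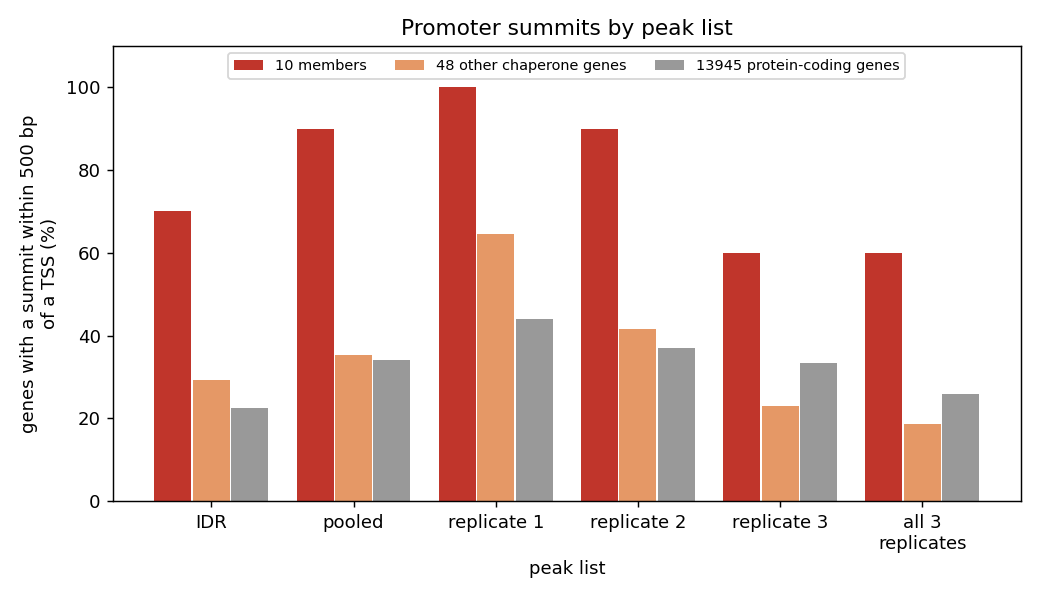
Share of genes with a summit within 500 bp of a TSS (y axis, percent) in each peak list and in all 3 replicate lists at once, for the 10 members, the 48 other chaperone genes and all 13945 protein-coding genes. The members are above the background in each list, from 60% in replicate 3 to 100% in replicate 1. The other chaperone genes range from 22.9% in replicate 3 to 64.6% in replicate 1. In all 3 replicate lists at once the members are at 60%, and the other chaperone genes, at 18.8%, are below the background of 25.8%.

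The strongest peaks of this wider list were at co-chaperone genes. DnaJ-H and mrj, which encode J-domain proteins, ranked 363, 490 and 348, and 378, 373 and 560, with IDR summits 248 and 302 bp upstream of a TSS. CG11267, which encodes the small co-chaperonin that caps Hsp60, ranked 597, 889 and 602, with its IDR summit 135 bp upstream. The ranks of DnaJ-H and mrj overlapped with those at Hsc70-5 (436 to 587), and those of CG11267 did not.

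The rest were weaker. The starvin gene stv, which encodes a BAG-domain partner of Hsp70, had an IDR rank of 2215, Gp93, the Hsp90 gene of the endoplasmic reticulum, 2887, the J-domain gene Droj2 3264 and the CCT subunit gene CCT5 3806. Hsc70-3, which encodes the endoplasmic reticulum Hsp70, followed at 4497, Stip1, which encodes the adaptor between Hsp70 and Hsp90, at 5629, Sgt at 6766, CCT3 at 8368 and Hsp110 at 8833. CG4456 and Hsp67Bc share the weak summit near the outer Hsp22 TSS. Of the 14 genes, 7 had a promoter summit in every replicate list, and the other 7, which were Gp93, Droj2, Stip1, CG4456, Hsp67Bc, CCT3 and Hsp110, lacked one in replicate 3.

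The inducible Hsp70 genes had next to no peaks. None of Hsp70Aa, Hsp70Ab, Hsp70Ba, Hsp70Bb, Hsp70Bbb and Hsp70Bc, nor Hsp68, had an IDR or pooled promoter summit. Replicate 1 had a summit 439 bp upstream of Hsp70Ab with a rank of 7376. At Hsp68 replicate 1 had one 33 bp downstream of the TSS, with a rank of 10176, and replicate 2 one 118 bp upstream, with a rank of 7629. The Hsp70 genes are near-identical copies, to which short reads are difficult to assign, so their values are uncertain.

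Most of the summits near the members lay on A- and T-rich sequence. Within 50 bp of the 12 IDR summits the GC content had a median of 30.7%, equal to that of all IDR summits, and it was lower than in windows 300 bp away at 9 of the 12. Over all IDR summits it was lower at 79.9%. The lowest value was 12.9% at the Hsp22 upstream summit, against 44.1% in its flanks, followed by 20.8% at the Hsp83 intron (flanks 44.1%), 22.8% at Hsc70-5 (41.1%), 23.8% at Hsp60A (40.6%) and 24.8% at Hsp26 (28.2%).

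The Hsp83 promoter went the other way, with 47.5% GC at the summit against 34.2% in the flanks. This was the only strong summit of the members where the summit was richer in GC. The other exceptions were weak, at CG4456 (44.6% against 44.1%) and beta4GalNAcTA (46.5% against 44.6%). At Hsp27, the strongest, the contrast was small, 32.7% against 37.1%.

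**Figure D4:**
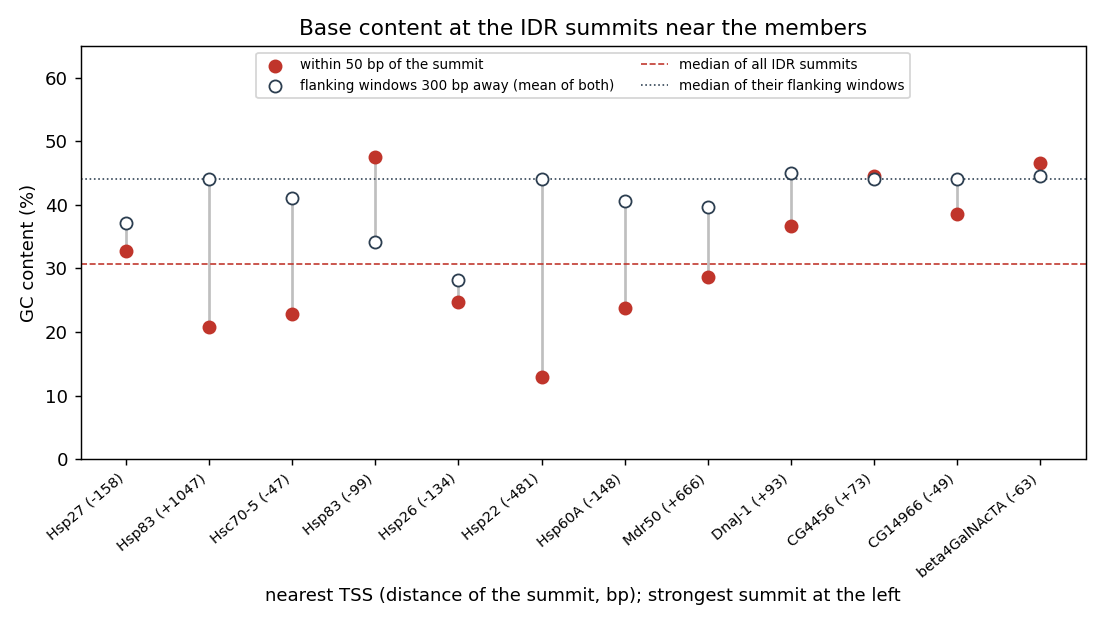
GC content (y axis, percent) within 50 bp of the 12 IDR summits near the members (filled) and in the windows of the same length centred 300 bp away (open, mean of both sides), ordered from the strongest summit at the left; the lines give the medians over all IDR summits. The summit is lower in GC than its flanks at 9 of 12, and the Hsp83 promoter summit is higher by the widest margin.

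Heat shock unit pairs were found upstream of most members and at 2 of the IDR summits near them. Pairs of units were searched as GAANNTTC and TTCNNGAA, each of which reads the same on both strands. GAANNTTC was found within 250 bp upstream of a TSS of 6 of the 10 members, against 9.95% of protein-coding genes, and TTCNNGAA at 3 of 10 against 8.35%. A run of 3 alternating units was there at 1 of 10, Hsc70-4, against 0.473%. At Hsp23 such a run was centred 399 bp upstream, outside that window. Counted by TSS, GAANNTTC was upstream of 9 of the 20 member TSSs, against 7.67% of 19607. Hsc70-4 holds 6 of the 20 TSSs, and TSSs that lie close together can share a pair, so these are not 9 separate sites. Within 50 bp of the summit GAANNTTC was present at 2 of the 12 IDR summits near members, the Hsp26 and Hsp83 promoters, against 2.98% of all IDR summits. TTCNNGAA and 3 alternating units in a row were at none of the 12, against 2.76% and 0.148%. The search took exact letters only, so arrays that hold imperfect units were not counted.

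Elsewhere the pairs lay farther from IDR summits, or beside summits that did not reach the IDR list. At Hsp22 the pairs upstream of the inner TSS, centred 84 and 185 bp before it, were 397 and 296 bp from the nearest IDR summit. At Hsp27 the only pair within 500 bp was centred 335 bp upstream, 177 bp from the summit. At Hsp23 a pair centred 135 bp upstream was 9 bp from the weak pooled summit 126 bp upstream. At Hsc70-4 a pair centred 154 bp upstream was 35 bp from the replicate 1 summit and 16 bp from that of replicate 3. A match of these letters is a description and does not show that the heat shock factor or CG2678 binds there.

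Of the other words, TATAAA was within 50 bp of 4 of the 12 summits (25.1% of all IDR summits), AAATAT of 5 (37.3%), GAGAG, the word of the GAGA factor, of 1 (8.77%), and GAGG or GGGG of 4 (29.8%). All were searched on both strands. Upstream of the members, TATAAA was within 250 bp of a TSS in 9 of 10 against 48.6% of protein-coding genes, with Hsf the exception, and GAGAG in 4 of 10 against 32.5%. The 4 were Hsp22, Hsp23, Hsp26 and Hsc70-4, and at Hsp26 the printed sequence shows the run of CT repeats that carries the word between the summit and the TSS.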

How the data were processed

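The authors deposited 5 peak lists in narrowPeak form on dm6: 1 per biological replicate, 1 pooled list and the list thresholded on IDR. Per the deposited file descriptions, each replicate list was made from its own alignments and 1 further file shared by all, and the pooled list from the alignments of all replicates and that file. Chromatin was sonicated to 200 to 800 bp, per the labels. For the aligner and caller, names were not given in the sources used here. Ranks came from the deposited signal value. The −log10 q-value the authors deposited reaches a shared maximum in each list and was left aside. No control library was analysed here, and whether open chromatin contributes to the peaks was not tested. Replicates are separate biological replicates per the labels.

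Coordinates were made 1-based, and gene models were Ensembl release 115 (BDGP 6.54) without transposable elements. Every peak fitted within the chromosome arms. All 9459 IDR lines were found in the pooled list. A summit was a promoter summit within 500 bp of any TSS, and otherwise 5′ UTR, coding, 3′ UTR, intron, other exon or intergenic in that order. A replicate summit matched within 100 bp. Counting was checked on planted summits. The analysis used Python 3.11.15, pandas 2.3.3 and numpy 2.4.6. No test was run, since there was 1 group and the members and lists were chosen with earlier results of these data known. Named genes were all members, other chaperone genes with an IDR promoter summit, the Hsp70 and Hsp68 genes, and genes nearest an IDR summit within 5 kb of a member; Pcl, Spn55B, stau, unc-45 and P58IPK fall outside this rule and were chosen after their values were seen. Of the 48 wider symbols 5 were matched through RefSeq synonyms, of which 2 (now CG5504 and Stip1) had 2 candidate genes.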

Additional observations from a re-analysis of the deposited data

How the results depend on the processing

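The number of members with an IDR promoter summit was 7 with windows of 250 or 1000 bp, with the 5′-most TSS alone and with the strongest summit of each interval, and 6, without DnaJ-1, in the upper 50% of the IDR peaks by signal and among IDR peaks matched in all replicates. With peaks matched in every replicate but 1, it was 6 to 7 (6 without replicate 1 or 2). With the 250 bp window and with the 5′-most TSS alone, Hsp22 was counted through its weaker summit (IDR rank 8290), which is nearest the TSS of CG4456. The count of members with an IDR summit within 5 kb fell from 8 to 3 with the gene body alone, as the window then leaves out upstream sequence. IDR summits near members numbered 12, and 8 to 10 without a replicate. Members with a promoter summit in all replicates numbered 6, and 5 to 7 under other windows and list lengths; without replicate 1, 2 or 3 the range was 6 to 9, with 9 without replicate 3. Only the mean rank of Hsc70-4, 6538, moved by over 1.5 times with 1 replicate left out, among members with promoter summits in all replicates: it was 1749 without replicate 2, 8834 without replicate 1 and 9032 without replicate 3. The Hsc70-4 mean joins different sites, since replicate 2 had its strongest promoter summit at another TSS than replicates 1 and 3. The median GC content at the 12 summits, 30.7%, was 31.4% within 25 bp and 34.3% within 100 bp. The 8 summits matched in all replicates were also 8 at 50 and at 200 bp. No paired analysis was possible because there was 1 group. Depth is unknown, and without read counts no counting error can be given for the ranks of the 3 replicates.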

Other observations

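Some strong peaks shared by 2 replicates had no pooled summit, and Hsc70-4 was one of them. Of the summits ranked in the first 3000 in both replicates 1 and 3 (within 100 bp of each other), 50 of 2423, or 2.06%, had no pooled summit within 100 bp, and 37 of these had none in replicate 2 either. For replicates 1 and 2 it was 43 of 2424 (1.77%), with 30 also missing from replicate 3, and for replicates 2 and 3 it was 19 of 2542 (0.747%), with 4 also missing from replicate 1.

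Other chaperone genes had a pattern that was in part like this, and they were chosen after their values were seen. Of these, unc-45 and P58IPK ranked outside the first 3000 in 1 or both of the replicates named. CCT3 had promoter summits 453 and 432 bp upstream of a TSS with ranks of 1172 in replicate 1 and 1797 in replicate 2, while its strongest pooled promoter summit was 225 bp upstream with a rank of 8368. The myosin chaperone gene unc-45 ranked 3415 in replicate 1 and 2567 in replicate 3, with no pooled promoter summit. P58IPK ranked 3888 in replicate 1 and 5544 in replicate 2, again with no pooled promoter summit.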
